A study of Kluyveromyces marxianus and Kluyveromyces lactis with 30 samples.

Results

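A set of 67 genes of the yeast Kluyveromyces marxianus, out of 5207 in the files, was chosen by its measured transcript levels, which were higher with caffeine and not with heat or with the DNA-alkylating agent methyl methanesulfonate (MMS). For each gene, counts scaled to 1e6 gene counts a library (CPM) were averaged over 3 libraries, and the log2 ratio of stress to control was taken with 1 CPM added to each side. The median ratio of the 4393 genes with at least 10 CPM in the controls was subtracted, and the recentred change is called r here. An r of 0 is therefore the change of the median gene. A member had an r of at least 1.3 in caffeine, which is 2.46-fold above the median gene, an r under 0.58, or 1.49-fold, in both heat and MMS, and at least 10 CPM in caffeine. Ethanol took no part in the choice.

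RNA with poly(A) tails was captured and sequenced from K. marxianus Km31, with 3 biological replicates a group and 15 libraries in all. The groups were cultures with caffeine, cultures with ethanol, cultures with MMS, cultures at 39C, called heat here, and controls at 28C. All were grown in rich medium, in 50 mL cultures started at a density (OD) of 0.05 and harvested at 0.4 to 0.85, and the labels give neither the doses nor the growth temperature of the 3 chemical treatments. All values come from 1 strain. Gene counts per library, in units of 1e6, ran from 15.99 to 29.5 in caffeine, 40.2 to 102.9 in ethanol, 18.9 to 39.1 in MMS, 19.3 to 31.3 in heat and 21.1 to 23.7 in the controls. Reads outside genes made up 7.06% to 7.75% of the total in caffeine, against 4.56% to 4.92% in the controls, and their part in the results was not tested. The ethanol files were counted by another program than the other 12 libraries, so an ethanol difference and a difference of counting cannot be told apart.

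Caffeine is a purine analogue that yeast cells meet as a drug. In baker's yeast, Saccharomyces cerevisiae, it is known to inhibit the growth-controlling kinase complex TORC1 and to activate the cell wall integrity pathway, a kinase cascade that raises genes of wall synthesis. MMS damages DNA and heat damages proteins, while ethanol perturbs membranes and proteins. The gene IDs of the files carry no gene names, and 0 of the 5207 were found in the available reference gene table of another K. marxianus strain. No function is therefore given for any member, and members are described by their IDs, levels and positions.

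In caffeine, 271 genes reached the required r and CPM, and the 67 members were 24.7% of them. Of the other 204, 58 were at 0.58 or more in heat only, 70 in MMS only and 76 in both. The members' r in caffeine ran from 1.3005 to 4.40 with a median of 1.51. It was under 1.5 in 32 members, at 2 or more in 17 and at 3 or more in 5, so the set held many moderate values and few large ones. The 3 members nearest the boundary had an r of 1.3005, 1.3034 and 1.3056, and the 3 nearest genes below it had 1.2989, 1.2977 and 1.2974. The member nearest the boundary in heat had an r of 0.578 and the nearest gene beyond it 0.585, and in MMS these were 0.550 and 0.590. No gene failed on the CPM minimum alone. Since these values chose the genes, they are descriptions and no test was made of them.

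**Figure D1:**
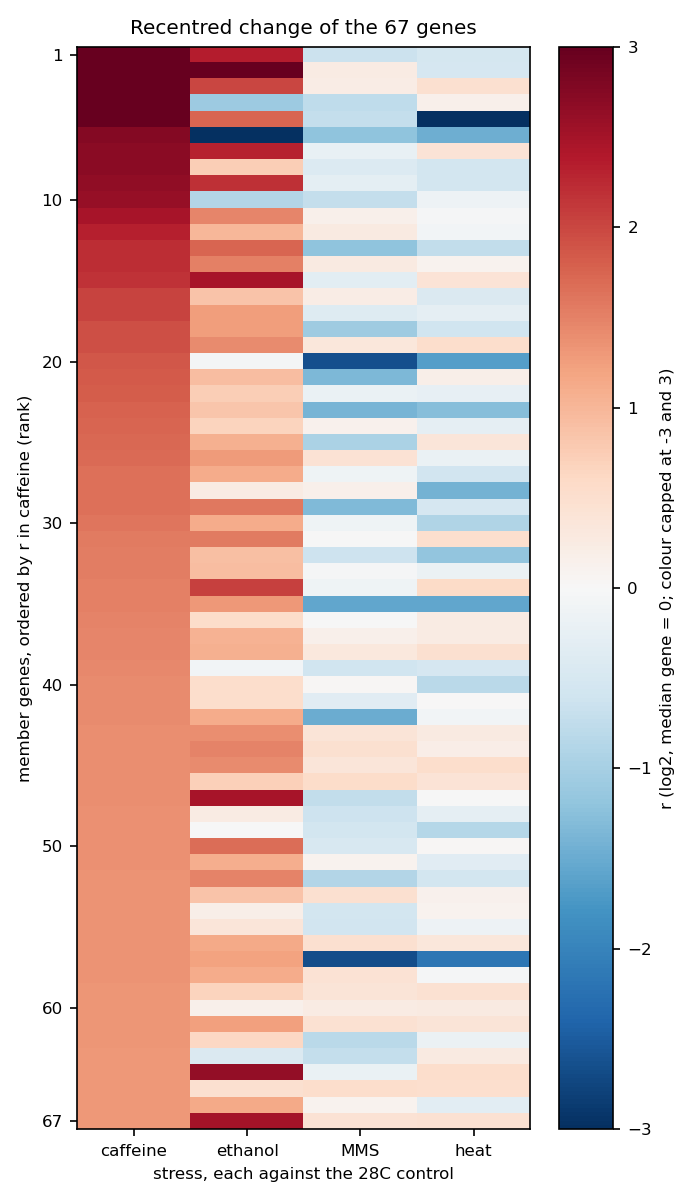
Recentred log2 change (r) of each of the 67 genes in caffeine, ethanol, MMS and heat, each against the 28C control, with genes down the page in order of r in caffeine and colours capped at -3 and 3. The caffeine column is at 1.3 or more and the MMS and heat columns under 0.58 by the choice of genes, and the ethanol column, which took no part in it, is at 0.58 or more in 51 genes.

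The members together took 3.03%, 2.88% and 3.11% of gene counts in the caffeine libraries. They took 1.63%, 1.15% and 1.43% in ethanol, 0.439%, 0.415% and 0.422% in MMS, 0.479%, 0.360% and 0.362% in heat, and 0.414%, 0.386% and 0.490% in the controls. The caffeine libraries lay above all others, the ethanol libraries came next, and the heat, MMS and control libraries overlapped. For single genes, levels are given as CPM of library totals scaled by TMM, a factor that aligns the bulk of genes between libraries. On this scale the median member had 146 CPM in caffeine, 76.3 in ethanol, 28.7 in MMS, 29.8 in heat and 31.7 in the controls. Per kilobase of exon the median member had 72.8 CPM in caffeine, against 41.3 for all tested genes there. In the controls it had 17.6 CPM per kilobase, against 39.3 for all tested genes, so the members were mostly of below-median abundance without stress. Replicates of a member differed by a median coefficient of variation of 11.6% in caffeine, 13.8% in ethanol, 7.35% in MMS, 15.7% in heat and 7.76% in the controls. In all 67 members every caffeine library lay above every MMS, heat and control library, and in 49 every caffeine library also lay above every ethanol library. The caffeine, MMS, heat and control values chose the members, so the high caffeine shares and the separation from MMS, heat and control largely follow from the choice. The count of 49 against ethanol is partly built in too, since a high caffeine value was required. It has no share of all tested genes beside it, and nothing is read from it.

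The member with the highest r in caffeine was KM020C03240, 1671 bases on the plus strand at chr3:702190-703860 of the build used in the files. It had 705, 632 and 522 CPM in caffeine, 209, 94.7 and 127 in ethanol, 18.3, 15.97 and 17.2 in MMS, 18.9, 15.8 and 22.4 in heat, and 25.2, 28.9 and 29.6 in the controls. All caffeine libraries were above all ethanol libraries, and both groups were above every control library, while all MMS and heat libraries were below every control library. Its mean was 22.2-fold higher in caffeine than in the controls, and its r was 4.40 in caffeine, 2.35 in ethanol, -0.65 in MMS and -0.52 in heat.

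KM020G03070, on the minus strand at chr7:620003-621223, came second by r and was close to silent without caffeine or ethanol. It had 34.5, 35.9 and 31.0 CPM in caffeine and 25.9, 13.6 and 18.9 in ethanol, against 0.916, 1.07 and 0.496 in the controls. In MMS it had 1.84, 1.07 and 1.40 CPM, and in heat 0.511, 0.121 and 0.487. The caffeine mean was 40.8-fold above the control mean, a larger ratio than that of KM020C03240, but the added 1 CPM lowers the r of a gene with so few counts, to 3.98 in caffeine and 3.27 in ethanol. Only the caffeine and ethanol libraries stood clear of the control range by more than a few CPM.

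Per kilobase, the most abundant member in caffeine was KM020G01210, a gene of only 126 bases on the minus strand at chr7:229569-229694. It had 965, 1164 and 1063 CPM in caffeine, 511, 339 and 416 in ethanol, 91.3, 64.6 and 71.8 in MMS, 14.9, 11.3 and 11.8 in heat, and 115, 133 and 139 in the controls. The mean was 8444 CPM per kilobase in caffeine, against 1023 in the controls. Caffeine and ethanol libraries were above the control range, and MMS and heat libraries below it. Its r of -3.22 in heat was the lowest of all members, and it was -0.72 in MMS.

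The next by abundance per kilobase was KM020D04140 at chr4:900562-901686, which lies over its whole length of 1125 bases inside KM020D04160, a gene on the opposite strand. KM020D04140 had 1839, 1609 and 1696 CPM in caffeine, 127, 96.1 and 91.4 in MMS, 84.0, 85.1 and 98.1 in heat, and 215, 255 and 281 in the controls. Its ethanol libraries held 0 counts, which, with a floor of 3 counts a library, is at least 6901-fold lower than in the controls. Of 223 tested genes that overlap another gene, 79 had 0 counts in every ethanol library, against 0 of the 4875 tested genes without an overlap. Every such gene thus overlapped another, and the 0 is not given as a response to ethanol. The strand setting behind the other files is not stated in the labels or headers. In those files KM020D04140 did receive counts of its own. Its mean was 1714 CPM in caffeine and 250 in the controls, where KM020D04160 averaged 440 and 676. In caffeine the inner gene thus exceeded the outer one, so its reads were not all counted for both. How reads on the shared bases were assigned was not tested. KM020D04160 averaged 981 CPM in ethanol. The only other overlapping member, KM020B02080, shares 2 bases with a gene on the same strand.

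**Figure D2:**
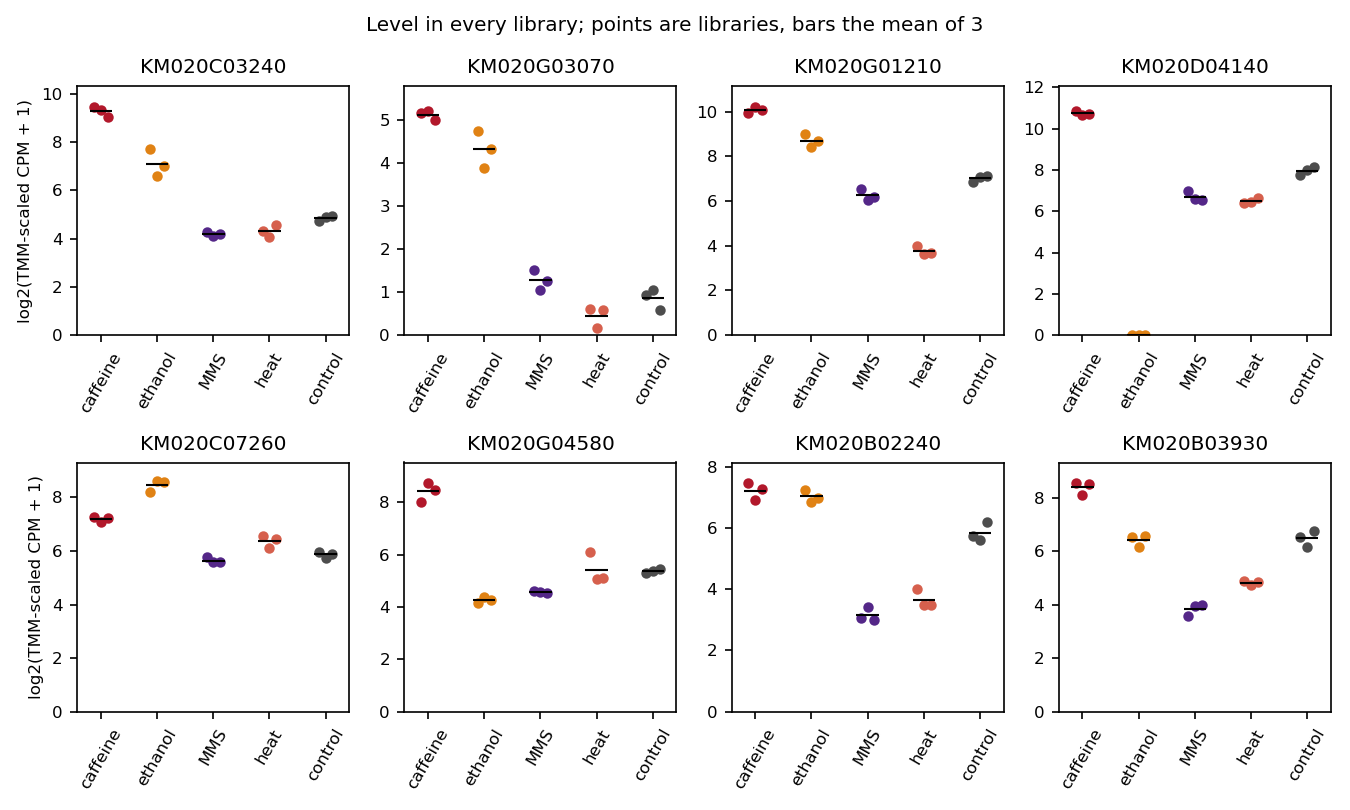
Level of 8 of the named genes in each library, as log2(TMM-scaled CPM + 1), with points for libraries, bars for the mean of 3, and separate vertical axes that start at 0. KM020C03240 and KM020G03070 were high in caffeine and ethanol, KM020G04580 was high in caffeine and lower in ethanol than in the control, and KM020D04140 had 0 counts in ethanol.

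Heat and MMS could leave a member near the median gene or lower it, since the choice barred only higher values. The members' r had a median of -0.20 in MMS and -0.08 in heat, and 41 of 67 were within 0.58 of the median gene in both. In heat, 13 members had an r of -0.58 or less, where 12.8% of all tested genes did. In MMS, 22 did, where 12% of all tested genes did, and 9 members did so in both stresses. The choice removed the upper end of these values, so nothing is read from those shares. The counts of 41 and 9 over both stresses have no share of all tested genes beside them, and nothing is read from them either. Between the 2 stresses, 2 members were at least 2-fold lower and 3 at least 2-fold higher in heat than in MMS, where 4.75% and 4.55% of all tested genes were, which is near the members' shares.

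KM020B02240, on the minus strand at chr2:459771-461582, had the lowest r in MMS, -2.67, and the second lowest in heat, -2.16. It had 175, 120 and 155 CPM in caffeine and 151, 116 and 126 in ethanol, against 52.1, 47.7 and 72.4 in the controls. In MMS it had 7.42, 9.78 and 6.92 CPM, and in heat 15.1, 10.1 and 10.3, so both stresses lay below the control range while caffeine and ethanol lay above it. KM020B03930, on the plus strand at chr2:793797-794285, had an r of -2.63 in MMS and -1.66 in heat. Its levels were 369, 271 and 364 CPM in caffeine, 90.4, 70.5 and 93.7 in ethanol, 10.8, 14.4 and 14.8 in MMS, 28.5, 25.7 and 27.8 in heat, and 92.0, 69.3 and 107 in the controls. Here the ethanol libraries overlapped the controls, and its caffeine libraries alone lay above them.

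Most members were higher in ethanol too, the stress whose libraries chose no member. In edgeR's quasi-likelihood test, fitted over all 15 libraries and 5098 genes, 56 of the 67 members were higher in ethanol than in the control at an adjusted p under 0.05, or 83.6%, where 37.6% of all tested genes were called higher. Only 3 members, or 4.48%, were called lower, where 34.1% of all tested genes were, and 8 members were not called. At a minimum of 2-fold, 38 members were called higher, and 11.2% of all tested genes were. The median log2 change of members was 1.16, with quartiles of 0.66 and 1.55, against 0.05, with quartiles of -0.42 and 0.51, over all tested genes. Every ethanol library lay above every control library in 53 members and below in 3, and the groups overlapped in 11. The share of all tested genes separated in this way is not given, so nothing further is read from these counts. Without the 2 overlapping genes, 55 of 65 members were higher and 2 lower, with a median log2 change of 1.19.

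In terms of r, 51 members were at 0.58 or more in ethanol, where 21.3% of all tested genes were, and 22 were at 1.3 or more, where 5.75% were. The r that kept genes out of the set in heat and MMS was thus passed in the ethanol files by most members, so the values do not show a set raised by caffeine alone, within the limit that ethanol and counting program cannot be told apart. For most members r was smaller in ethanol than in caffeine: r in caffeine exceeded r in ethanol by a median of 0.655, and in 9 members ethanol was higher. The choice required a high r in caffeine and took no account of ethanol. This difference is therefore partly built in, and nothing is read from its size. The 16 members under 0.58 in ethanol had a median r of 1.42 in caffeine, -0.16 in heat and -0.56 in MMS. The 51 at or above it had medians of 1.57, -0.07 and -0.13 in those stresses. Of the 204 other genes that reached the same level in caffeine, 179, or 87.7%, were called higher in ethanol and 12 lower, with a median log2 change of 1.58. A high share in ethanol was therefore also seen among genes that heat or MMS raised.

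**Figure D3:**
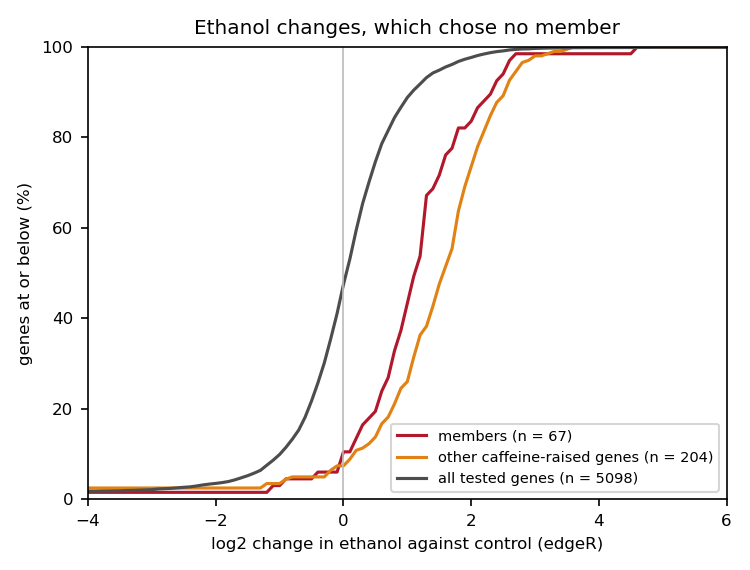
Cumulative share of genes (%) at or below each log2 change in ethanol against control, by edgeR, for the 67 members, the 204 other genes that reached the same r and CPM in caffeine, and all 5098 tested genes; the horizontal axis stops at -4 and 6. The medians are 1.16, 1.58 and 0.05.

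The ethanol and caffeine changes share the same 3 control libraries, so a control value that is low by chance raises both. The choice was repeated on 2 replicate numbers of each group, and ethanol was read against the control library it had not used. This reading of ethanol was added after the data were seen. Of the 73, 67 and 64 genes chosen without number 1, 2 or 3, 57, 47 and 45 were at an r of 0.58 or more in ethanol, or 78.1%, 70.1% and 70.3%. Over all tested genes these shares were 20.8%, 21.9% and 21.6%. The share at that mark was above that of all tested genes in each of the 3 readings, whose chosen genes mostly overlap, so they are not separate tests. The part of the shared controls in the ethanol changes was not tested.

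The largest rises in ethanol, among members that overlap no other gene, were those of KM020G03070 and KM020C07260. KM020G03070, whose levels are given above, had a log2 change of 4.54 ± 0.32 (SE; edgeR adjusted p = 1.13e-08). KM020C07260, on the plus strand at chr3:1539622-1541550, had 153, 134 and 151 CPM in caffeine, 291, 394 and 381 in ethanol, 53.4, 46.7 and 46.7 in MMS, 93.7, 68.3 and 85.4 in heat, and 61.6, 52.9 and 58.6 in the controls. It was 6.16-fold higher in ethanol than in the control (log2 change 2.62 ± 0.13 SE; edgeR adjusted p = 3.40e-10). All its ethanol libraries lay above all its caffeine libraries, so this member of the set was higher in ethanol than in caffeine. KM020C03240 rose by 2.36 ± 0.23 on the log2 scale in ethanol (edgeR adjusted p = 3.68e-07), KM020G01210 by 1.71 ± 0.16 (2.34e-07) and KM020B02240 by 1.19 ± 0.19 (5.58e-05).

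KM020G04580 was the member without overlap that fell most in ethanol. It lies on the minus strand at chr7:927215-928039 and had 262, 433 and 359 CPM in caffeine, 17.1, 19.7 and 18.5 in ethanol, 23.6, 23.0 and 22.2 in MMS, 67.7, 32.9 and 33.3 in heat, and 38.5, 40.6 and 42.8 in the controls. The ethanol and MMS libraries lay below every control library, and in heat 1 library was above the controls and the other 2 below. The ethanol log2 change was -1.14 ± 0.23 (SE; edgeR adjusted p = 0.000462), with an r of 3.07 in caffeine. KM020D01040, at chr4:195550-197409 on the plus strand, was named after its values were seen, as the remaining member called lower beside KM020D04140. It had 400, 312 and 397 CPM in caffeine, 44.6, 18.1 and 30.4 in ethanol, 30.7, 37.6 and 35.3 in MMS, 34.1, 76.9 and 47.0 in heat, and 55.6, 58.4 and 62.3 in the controls, with an ethanol log2 change of -0.92 ± 0.29 (SE; edgeR adjusted p = 0.00967). Both genes were thus high in caffeine and below the control range in ethanol and MMS. The 8 members not called had ethanol log2 changes of -0.49 to 0.34, among them KM020B03930 at -0.07 ± 0.16 (SE; edgeR adjusted p = 0.696).

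Membership was also read in libraries that had not chosen it. Of the genes chosen without replicate number 1, 2 or 3, 61 of 73, 42 of 67 and 43 of 64 were at an r of 1.3 or more in the caffeine and control libraries left out, or 83.6%, 62.7% and 67.2%. Over all tested genes the same libraries gave 5.87%, 5.98% and 5.18%. The median r in the libraries left out was 1.79, 1.43 and 1.45, and the lowest was 0.88, 0.65 and 0.40, so every chosen gene was above the median gene there. All conditions together, with heat and MMS also read in the libraries left out, were met by 37, 40 and 41, where 1.41%, 1.43% and 1.53% of all tested genes met them. The r of heat was under 0.58 in 50 of 73 genes in number 1, against 66 of 67 and 62 of 64 in numbers 2 and 3, where 84.9%, 86.3% and 86.2% of all tested genes were. Of the genes chosen, 55, 54 and 55 were among the 67 members.

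**Figure D4:**
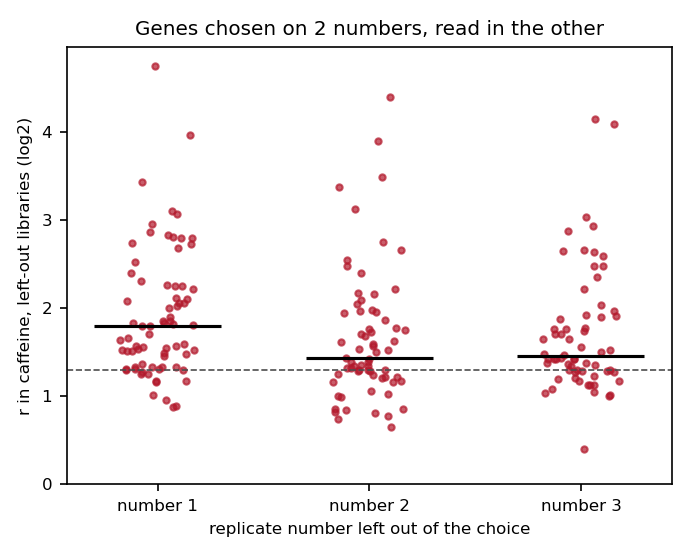
Recentred log2 change (r) in caffeine, in the caffeine and control libraries of the replicate number that was left out when the genes were chosen; points are genes, bars medians and the dashed line the 1.3 of the rule. The medians were 1.79, 1.43 and 1.45, and no point is below 0.40.

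Length and position took no part in the choice. The members' median exon length was 1656 bases, with a range of 126 to 6046, against 1723.5 for the 204 other genes raised in caffeine and 1401 for all tested genes. None was counted in several coding parts, where 141 of the tested genes, or 2.77%, were, a share too small to set the members apart. Chromosome 2 held 19 members, or 28.4%, and 16.4% of all tested genes. The other chromosomes held 5 on 1, 9 on 3, 11 on 4, 4 on 5, 9 on 6, 5 on 7 and 5 on 8, and no member lay on the smaller sequences of the assembly, which hold 92 tested genes. Of the members 4, or 5.97%, lay less than 20 kb from an end of their chromosome, against 97 of the 5006 tested genes on chromosomes 1 to 8, or 1.94%, with the last annotated base taken as the right end. At less than 50 kb, a distance chosen after the values were seen, were 11 members, or 16.4%, against 8.87% of the other genes raised in caffeine and 6.25% of all tested genes, also on chromosomes 1 to 8. These 11 include both genes of each neighbouring pair near a chromosome start described below, so they are not 11 separate places. These are descriptions with no test, and genes next to each other are not independent.

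Members occurred next to each other 5 times, and each time head to head, with the 2 genes transcribed away from each other. Of the 5182 neighbouring pairs of genes in the annotation, 27.6% were head to head, 44.6% ran in the same direction and 27.9% faced each other. The gaps between the 2 members of a pair ran from 772 to 2881 bases, all longer than the median of 463 for head-to-head pairs, and none of these 10 genes overlaps another. Tested neighbours that were not members reached an r of 0.58 or more in caffeine in 10 of 33 cases head to head, or 30.3%, 21 of 61 in the same direction, or 34.4%, and 6 of 29 facing, or 20.7%. Over all tested genes 20.9% did. The 33 cases head to head include KM020D04160, which holds the member KM020D04140 whole inside it on the opposite strand. An r of 1.3 or more in caffeine was reached by 0 of the 33 neighbours head to head, 5 of the 61 in the same direction and 1 of the 29 facing. Over all tested genes, members among them, 5.34% reached it. These counts are small, and nothing is read from them about orientation. The median r of these neighbours was 0.47 head to head, 0.03 in the same direction and 0.09 facing.

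KM020B06870 and KM020B06880, at chr2:1365580-1367091 on the minus strand and chr2:1368376-1369881 on the plus strand, were the pair with the highest r. KM020B06870 had 278, 271 and 274 CPM in caffeine, 113, 86.1 and 110 in ethanol, 30.2, 28.6 and 29.4 in MMS, 39.3, 33.7 and 33.0 in heat, and 24.9, 23.0 and 27.5 in the controls. KM020B06880 had 98.0, 104 and 102 CPM in caffeine, 66.1, 67.7 and 85.1 in ethanol, 42.2, 39.4 and 40.7 in MMS, 26.9, 27.7 and 22.9 in heat, and 30.7, 30.3 and 29.6 in the controls. Both were highest in caffeine and next highest in ethanol with no overlap between those groups, and in heat the first lay above its control range and the second below it. Their r in caffeine was 3.37 and 1.69, and their ethanol log2 changes were 2.03 ± 0.11 and 1.27 ± 0.10 (SE; edgeR adjusted p = 4.20e-10 and 2.59e-08).

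In KM020C03370 and KM020C03380, at chr3:726558-731752 (minus) and chr3:732525-733862 (plus), the genes were alike in caffeine by r and unlike in ethanol. KM020C03370 had 49.5, 34.8 and 54.0 CPM in caffeine, 107, 79.9 and 97.8 in ethanol, and 16.3, 14.6 and 18.5 in the controls. KM020C03380 had 231, 158 and 229 CPM in caffeine, 123, 74.2 and 104 in ethanol, and 78.3, 75.3 and 84.8 in the controls, so its ethanol libraries overlapped the controls. The r in caffeine was 1.38 and 1.35. The ethanol log2 change was 2.53 ± 0.18 (SE; edgeR adjusted p = 1.78e-08) for KM020C03370 and 0.34 ± 0.17 (0.0844) for KM020C03380. Without the second ethanol library the change of KM020C03380 was 0.52 and passed the test. The difference between the 2 genes was not tested.

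The other 3 pairs lie near chromosome starts, as the annotation numbers them. KM020B00210 (chr2:34745-36354, minus) and KM020B00220 (chr2:39236-40918, plus) had an r of 1.40 and 1.81 in caffeine and ethanol log2 changes of 1.77 ± 0.18 and 0.74 ± 0.13 (SE; edgeR adjusted p = 7.69e-07 and 0.000184). KM020B00210 was among the least abundant members, with 14.3, 10.3 and 15.2 CPM in caffeine, 12.7, 13.8 and 14.1 in ethanol and 4.07, 4.17 and 3.596 in the controls. KM020D00220 (chr4:28161-29690, minus) and KM020D00230 (chr4:30612-34472, plus) had an r of 1.53 and 2.47 in caffeine and ethanol log2 changes of 0.94 ± 0.17 and 1.46 ± 0.19 (SE; edgeR adjusted p = 0.000163 and 8.53e-06). In both of these pairs every caffeine and ethanol library was above every control library.

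KM020H00220 (chr8:31067-32290, minus) and KM020H00230 (chr8:34071-37064, plus) were abundant. Their coefficients of variation in caffeine were 14.7% and 28.7%, against a median of 11.6% over members. KM020H00230 had 2150, 1197 and 1987 CPM in caffeine, 1077, 639 and 1030 in ethanol, 178, 196 and 194 in MMS, 836, 372 and 429 in heat, and 452, 367 and 653 in the controls. KM020H00220 had 677, 503 and 610 CPM in caffeine, 393, 325 and 415 in ethanol, 181, 207 and 201 in MMS, 262, 135 and 134 in heat, and 193, 156 and 260 in the controls. In KM020H00230 the second caffeine and ethanol libraries were the lowest of their groups, the MMS libraries were all below the controls, and ethanol and control libraries overlapped. The ethanol log2 change was 0.90 ± 0.23 for KM020H00220 and 0.90 ± 0.30 for KM020H00230 (SE; edgeR adjusted p = 0.00325 and 0.0159). For KM020H00230 the change did not pass the test without the first ethanol library (0.77), the first control library (0.84) or the second control library (0.73).

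**Figure D5:**
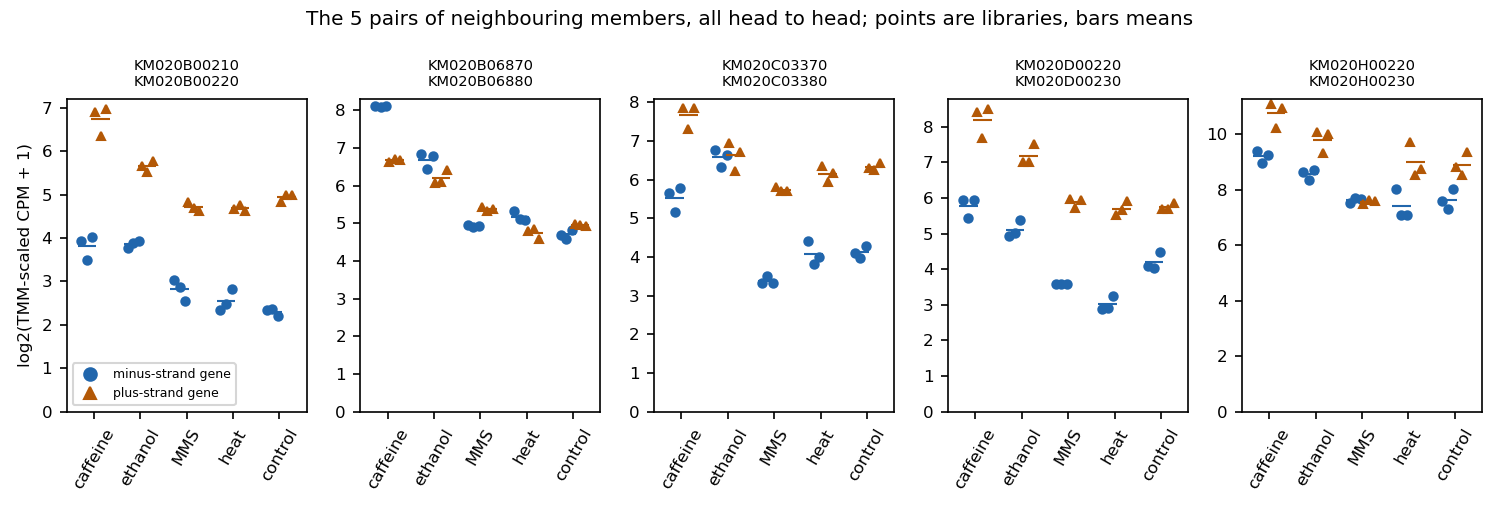
Level of both genes of the 5 neighbouring head-to-head pairs in each library, as log2(TMM-scaled CPM + 1), with circles for the minus-strand gene, triangles for the plus-strand gene, bars for means of 3, and vertical axes that start at 0. All 10 genes are higher in caffeine than in control in every library, and KM020C03380 and KM020H00230 overlap between ethanol and control.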

How the data were processed

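The deposited values are raw counts per gene feature, with no normalization by the authors, in 15 K. marxianus libraries; K. lactis was not analysed here. The ethanol files were counted with featureCounts 1.6.3 on exon features, per the file headers. The other 12 have the HTSeq layout per coding part, and TopHat and HTSeq are named without versions in the submitters' processing notes. For the genome build and the strand setting, neither labels nor headers give a value, and positions were read from the ethanol files. Coding parts were summed to genes. Reads on no feature, 4.56% to 7.75% of the total in the 12 HTSeq files, stayed out of library sizes and tests. Titles of the samples gave the groups and the replicate numbers.

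Recentred changes were computed from CPM of raw totals, and printed levels use TMM-scaled totals (factors 0.712 to 1.36). The median subtracted was 0.865 in caffeine, 0.693 in ethanol, 0.307 in MMS and 0.239 in heat (log2). The ethanol test was the quasi-likelihood test of edgeR 4.0.16 (R 4.3.3, limma 3.58.1) with the group as model term for all 15 libraries, after filterByExpr, which left 5098 genes and all 67 members, 2-sided and adjusted by Benjamini-Hochberg. It was tested on simulated data with known changes. DESeq2 1.42.0, RLE scaling, no low-count filter, other thresholds of the rule, a replicate block and leaving out each library were alternatives.

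The members, lists and rules were chosen with earlier results of these data known. Named are the 2 members highest by r in caffeine, the 2 most abundant there, the 2 with the largest rise and fall in ethanol among those called at 2-fold without overlap (1 fell), the 2 lowest in heat and in MMS, and neighbouring members. Abundance was read per kilobase. Lists of genes by baker's yeast symbol could not be used, since no ID was named.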

Additional observations from a re-analysis of the deposited data

How the results depend on the processing

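With caffeine r set at 1 or more in place of 1.3 the rule chose 157 genes, with 1.6 or more it chose 30, and leaving out 1 library gave 56 to 78. A pseudocount of 5 CPM chose 58 genes, of which 44 are among the 67, TMM-scaled totals chose 61, of which 59 are, and a limit of 0.3 in heat and MMS kept 46. The count of members higher in ethanol was 55 with RLE scaling, 54 with DESeq2, 56 with no filter, 54 in the fit of the 6 libraries compared, and 51 to 58 with 1 ethanol or control library left out. Members lower in ethanol numbered 3 or 4 over the same settings, and 2 at a minimum of 2-fold or without overlapping genes. The share of members at an r of 0.58 or more in ethanol was 76.1%, and 70.1% and 70.3% when the genes were chosen without number 2 or 3 and read against that control, a setting added after seeing the data. The cause was not tested. With the replicate number as a replicate block 57 members were higher and 3 lower. Deviations from the group mean were correlated between ethanol and control libraries only. Same-numbered libraries gave 0.029, 0.168 and 0.159, and differently numbered ones -0.217 to 0.063. The numbers were not taken to pair samples. Of 198 alternative values for named genes in ethanol, 193 kept their side of the threshold, 3 did not pass it (all KM020H00230), 2 newly passed it (KM020C03380, 0.31 with the block and 0.52 without the second ethanol library), and 0 called values reversed. Low counts limit the precision of KM020G03070 in heat and the controls, and each group has only 3 replicates.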
